A study of Rattus norvegicus with 8 samples.

Results

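The 10 genes described here encode enzymes that turn glucose into pyruvate and lactate. They are Hk1, Gpi, Aldoa, Tpi1, Gapdh, Pgk1, Pgam1, Eno1, Ldha and Ldhb. Their probes were taken by the gene name on the array, which gave 15 probes of the 41012 on it, and all 15 accessions matched the same symbols in RefSeq. Gpi, Hk1, Gapdh, Pgam1 and Eno1 have 2 probes each, and the probes of Ldha, Pgk1 and Gapdh (A_44_P193181) are printed 10 times on every array.

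Whole testes of Sprague-Dawley rat fetuses were explanted at mid-gestation and kept on floating filters for 72 h with mono-(2-ethylhexyl) phthalate (MEHP), the active metabolite of a plasticizer. MEHP was given in DMSO, at 1 µM to 1 testis and at 10 µM to 3 testes, the latter taken from different litters. Each was hybridized on 2 of the 8 two-colour Agilent arrays against 1 pool of RNA from 3 testes kept with DMSO alone, so the spread among control testes was not measured. The MEHP testis carried Cy3 (green) in the first hybridization and Cy5 (red) in the repeat, as the methods describe, although the labels name Cy3 for every array. All values are log2 of MEHP over the pool, averaged over the 2 hybridizations of a testis, and values below 0 mean less signal in the MEHP testis.

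Glycolysis splits glucose in a preparatory phase that spends ATP and regains it in a payoff phase that also yields NADH. Lactate dehydrogenase then reduces pyruvate to lactate and gives back the NAD+ that the payoff phase needs. In the testis, Sertoli cells are known for making lactate, which germ cells take up as fuel.

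Testis 2 at 10 µM stood apart. Its MEHP channel was well above background at 0.249% of spots when it was green and 1.54% when it was red, against 7.80% to 26.4% for the other testes at 10 µM and 15.4% to 29.8% at 1 µM. The vehicle channel reached 9.23% to 31.9% over the 8 arrays. Over the 9996 probes tested at 10 µM, testis 2 had a median of −1.14, testis 1 of 0.09 and testis 3 of −0.20. Results at 10 µM are therefore given with and without testis 2. Over the 3788 probes above background on all 8 arrays, the red over green ratios of paired arrays correlated at −0.82 to −0.49, the sign that exchanged dyes give, but over all tested probes the value was 0.16 for the 1 µM testis, where dim probes are included. Among markers taken for the check, 5 of 7 Sertoli, 5 of 6 Leydig, 3 of 4 peritubular, 2 of 4 germ cell, 4 of 5 macrophage, 1 of 3 endothelial and 2 of 3 erythroid genes were above background in the pool on at least 1 array. Fshr, Cldn11, Lhcgr, Pou5f1 and Dppa3 were among those that were not. The summed signal of the Sertoli list ranged from 2501 to 13395 in the pool and from 1252 to 9031 in the testes at 10 µM, and that of the Leydig list from 1378 to 7860 and from 770 to 2545. Of 17 marker probes tested at 10 µM, 1 was lower with all testes, where 1.85% of all tested probes were. This was Cyp17a1, a Leydig cell steroid enzyme (limma, adjusted p = 0.0407). Without testis 2, 6 were lower and 0 higher, where 9.64% and 7.23% of all tested probes were. The 6 were Cyp17a1, Insl3 and Hsd3b1 of the Leydig list, Dhh (Sertoli), Lyz (macrophage) and Tagln (smooth muscle). For all but Insl3 the MEHP channel was above background on 0 to 2 of the 6 arrays. Those probes entered the test through the pool, so their calls support nothing about the markers. At 1 µM, 3 of 24 marker probes were lower and 3 higher, where 2.96% and 4.05% of all tested probes were. The part of cell makeup in the values that follow was not tested, and in whole testes fewer cells of a type and less RNA per cell cannot be told apart.

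At 10 µM MEHP, Ldha was the member that fell past the threshold, to a mean of −1.98. Its MEHP channel was above background on 1 of the 6 arrays at this dose, and with normexp background correction and loess the mean was −0.37 and did not pass (limma, adjusted p = 0.289). Without testis 2, probes of 4 member genes were lower, namely Tpi1, Pgk1, Pgam1 and Ldha, and none was higher. Of all tested probes, 9.64% were lower and 7.23% higher. Tpi1, Pgk1 and Ldha had the MEHP channel above background on 2, 1 and 1 of the 6 arrays. They entered the test through the pool, so these calls support nothing about them. With normexp and loess over these 2 testes, a setting chosen after seeing the data, only the brighter probe of Pgam1 passed (limma, adjusted p = 0.0364). With normexp and loess over all 3 testes it did not pass (adjusted p = 0.308). The brighter probes of Hk1 and Gpi, which act at the start of the pathway, lay between −0.25 and 0.23 in testes 1 and 3. The second probe of Gpi gave 0.30 and −0.62 there. At 1 µM, Ldha, Pgk1 and 1 probe of Pgam1 were lower in both hybridizations by more than 1.5-fold, and 0 members were with normexp and loess.

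In counts, 14 of the 15 probes were bright enough to test at each dose. At 10 µM, 1 of the 14 was lower at an adjusted p of 0.05 (limma, Benjamini-Hochberg over all tested probes), where 1.85% of all tested probes were lower. Without testis 2, 5 of the 14 were lower, beside 9.64% of all tested probes, and 0 were higher, beside 7.23%. Of these 5, the probes of Ldha, Pgk1 and Tpi1 and the dim probe of Pgam1 had the MEHP channel above background on fewer than 3 of the 6 arrays and entered the test through the pool, so their count supports nothing about the members. The fit without testis 2 rests on 2 testes, and its count was 6 with centred arrays, 1 with normexp and loess and 2 with no background correction and loess, in settings chosen after seeing the data. The log2 value was below 0 in all 3 testes for 9 of the 14 probes, against 36.4% of all probes, and in both testes 1 and 3 for 10 of the 14, against 38.1%. Both counts hold Ldha, Pgk1, Tpi1 and the dim probe of Pgam1, which entered through the pool, so they too support nothing about the members. At 1 µM, 3 of the 14 were lower by 1.5-fold in both hybridizations, against 2.96% of all probes, and 0 were higher, against 4.05%. With a single testis at 1 µM there was no test of that dose.

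**Figure D1:**
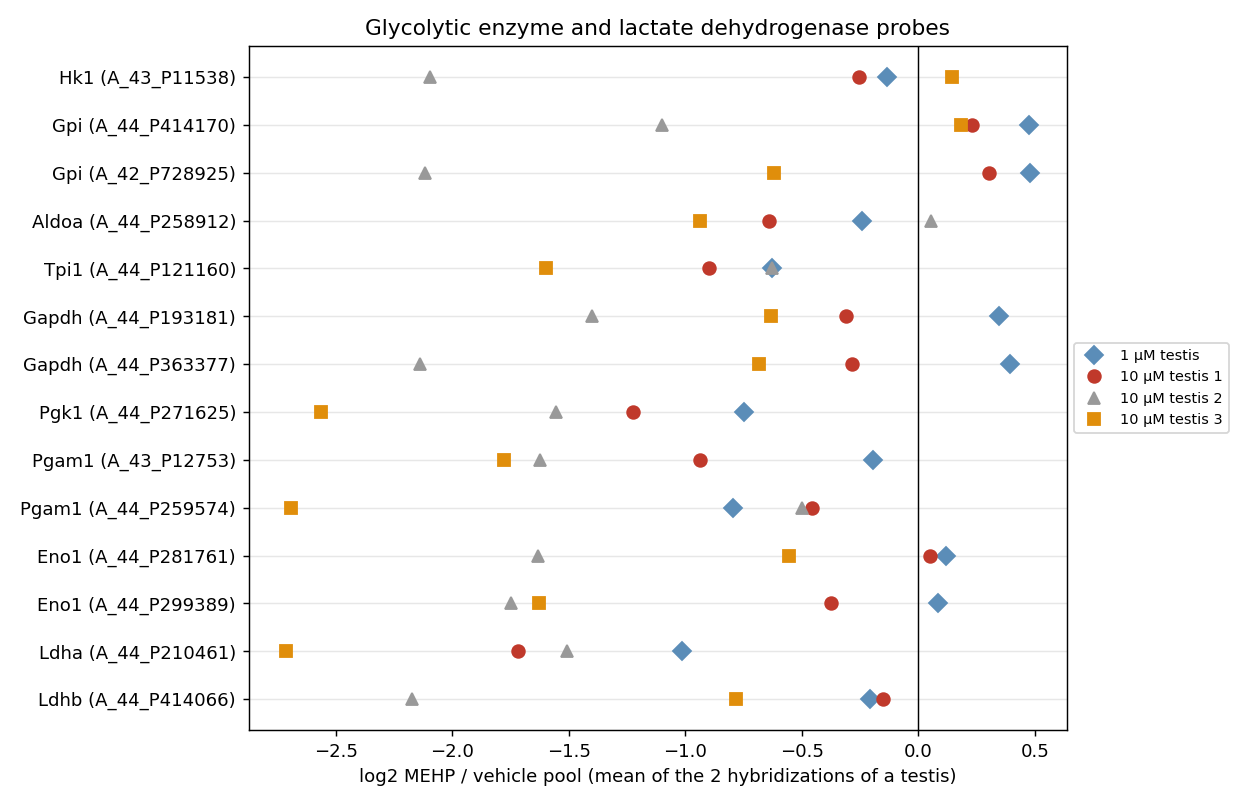
Each row is a tested probe of a glycolytic enzyme or lactate dehydrogenase, and each symbol is the log2 MEHP over vehicle ratio of 1 testis, averaged over its 2 hybridizations. Ldha and Pgk1 lie below 0 in all 4 testes, while Gpi (A_44_P414170) lies above 0 in all but testis 2, and both Gapdh probes lie above 0 at 1 µM and below 0 in all 3 testes at 10 µM.

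The medians of the members are given with no test of the list. On the deposited scale, testes 1, 2 and 3 had medians of −0.34, −1.59 and −0.86 over the 14 member probes. Each lay below the median of all tested probes of that testis. In testis 2 this turned with normexp and loess, at 0.002 for the members and −0.078 for all probes. It also turned there with no background correction and loess, at −0.020 and −0.058. Averaged over testes 1 and 3, the members had a median of −0.64 and all probes −0.04. At 1 µM the medians were −0.16 and 0.02. With normexp and loess, as with no background correction and loess, the median of the members over the 3 testes at 10 µM moved from −1.03 to −0.18. That of all probes moved from −0.42 to −0.04 and −0.03. Within the members, the median over testes 1 and 3 was −0.16 for the 5 tested probes of the preparatory phase, −1.001 for the 7 of the payoff phase and −1.34 for lactate dehydrogenase, the midpoint of Ldha at −2.21 and Ldhb at −0.47. At 1 µM these medians were −0.13, 0.08 and −0.61. The payoff and lactate dehydrogenase values include Pgk1, Ldha and the dim probe of Pgam1. Their MEHP channel was above background on 1, 1 and 0 of the 6 arrays at 10 µM. Of the payoff probes with both channels above background in testes 1 and 3, Gapdh gave −0.47 and −0.48, Eno1 −0.25 and Pgam1 −1.36 over these testes. A difference between the phases was not tested.

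**Figure D2:**
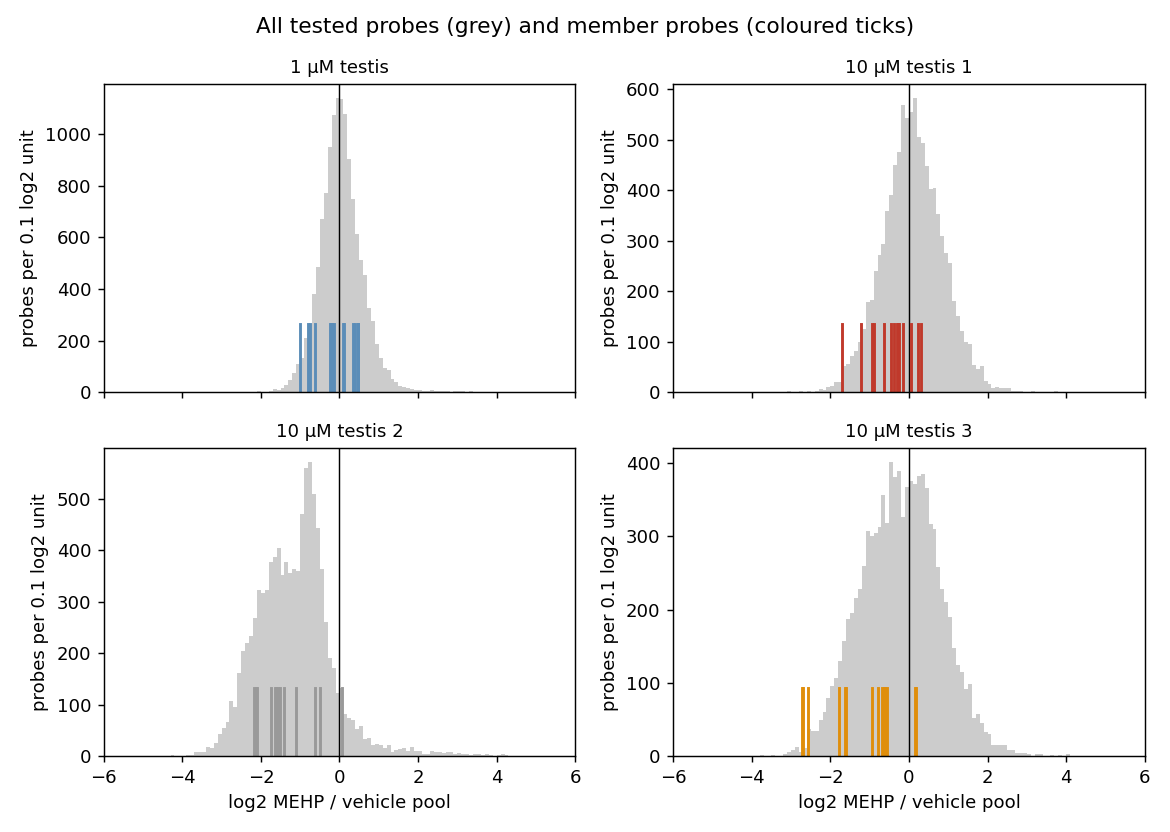
Grey bars count all tested probes by their log2 MEHP over vehicle ratio in each testis, and coloured ticks mark the 14 tested member probes. The grey distribution of testis 2 is centred at −1.14, whereas those of the other testes lie near 0, and the member ticks reach from −2.71 to 0.18 in testis 3.

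Ldha encodes the A (muscle type) subunit of lactate dehydrogenase, which favours the step from pyruvate to lactate. Its log2 ratios in the first and repeat hybridizations were −2.32 and −1.11 in testis 1, −1.86 and −1.15 in testis 2, and −2.36 and −3.06 in testis 3. All 6 values were below 0. The mean over testes was −1.98 ± 0.64 (SD, n = 3), with 0.0403 as the adjusted p of limma, and it was −2.21 without testis 2 (adjusted p = 0.00876). At 1 µM the 2 hybridizations gave −0.89 and −1.14, a mean of −1.01, which was −0.16 with normexp and loess and −0.33 with no background correction and loess. Without testis 2 the mean at 10 µM was −0.46 with normexp and loess (limma, adjusted p = 0.0683). The call at 10 µM was lost without testis 1 (limma, adjusted p = 0.266) or testis 3 (adjusted p = 0.849), by centring the arrays on their medians, at −1.53 (adjusted p = 0.0640), with slide as a block, at −2.16 (adjusted p = 0.285), and with the testis as a random block over 6 arrays (adjusted p = 0.0693).

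The 10 spots of Ldha on each array show how far the printing and scanning repeat. Their SD was between 0.23 and 0.82 on the log2 scale, and on every array at least 9 of the 10 spots were below 0. At 10 µM the signal of the MEHP channel ran from 89.6 to 470, and that of the pool from 304 to 1713. The MEHP channel was well above background on 1 of these 6 arrays, the repeat of testis 1, where 9 of 10 spots passed, and at 0 of 10 spots on each of the other arrays at 10 µM. The pool was above background on 4 of the 6, but not on the repeat of testis 1, so no array at 10 µM had both channels above background. The fold at 10 µM therefore rests on an MEHP signal mostly at background. At 1 µM both channels were above background on both arrays, with pool signals of 799 and 611 and MEHP signals of 441 and 273. There 5 of 10 MEHP spots passed in the first hybridization and 10 of 10 in the repeat, and 10 of 10 and 6 of 10 for the pool.

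Ldhb encodes the B (heart type) subunit, which favours lactate as substrate. Its pool channel was above background on all 8 arrays, with signals from 1710 to 8814. The MEHP channel of Ldhb was not above background on either array of testis 2, at 1492 and 446. At 10 µM testes 1 to 3 had log2 ratios of −0.15, −2.17 and −0.78, a mean of −1.03 ± 1.03 (SD, n = 3), with 0.323 as the adjusted p of limma. Testis 2 set that mean, which was −0.47 without it (limma, adjusted p = 0.368). At 1 µM it was −0.21 in both hybridizations. Ldha lay below Ldhb by a log2 difference of −0.81 at 1 µM, −1.57 in testis 1 and −1.93 in testis 3, whereas in testis 2 it lay above, by 0.66. The MEHP signal of Ldha was at background in testes 2 and 3 and in the first hybridization of testis 1. In the repeat of testis 1 the pool was not above background, at 364. No array at 10 µM thus had both channels of Ldha above background. With normexp and loess the differences were −0.024 at 1 µM and −0.20, −0.042 and −0.047 in testes 1 to 3. With no background correction and loess they were −0.096 at 1 µM and −0.21, 0.079 and 0.039 in testes 1 to 3. The sign thus turned in testis 3. This difference between subunits is given without a test.

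**Figure D3:**
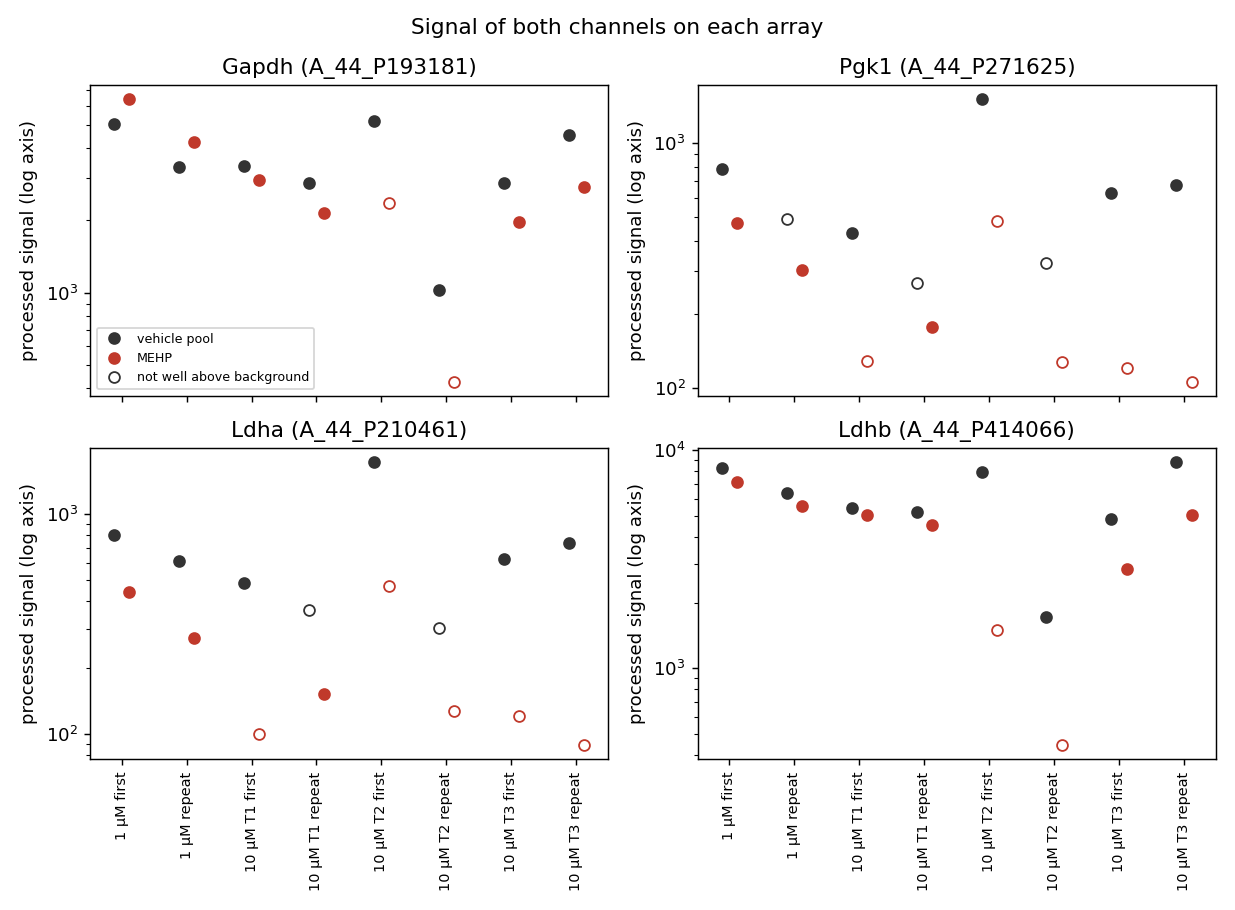
Processed signals of the vehicle pool (black) and of the MEHP testis (red) on each array, on log axes, for the brightest probes of Gapdh, Pgk1, Ldha and Ldhb; open circles mark signals not well above background. Ldha and Pgk1 have open MEHP circles on 5 of the 6 arrays at 10 µM, whereas Gapdh and Ldhb have them only on the 2 arrays of testis 2.

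Upstream sequences are shown for members that were lower without testis 2 and for Ldhb as the other lactate dehydrogenase. RefSeq promoters (build GRCr8) were found for 9 of the 10 genes, and Pgk1 is named only. The 250 bases before the start site were searched for ACGTG on both strands, the letters at the core of the hypoxia response element to which HIF-1, a known activator of glycolytic genes, binds. It occurred in 16.6% of 33469 such windows in the table. The window of Ldha held 3 matches, of which 2 overlap in the palindrome CACGTG, that of Pgam1 held 1, and those of Tpi1 and Ldhb held 0. The related letters GCGTG occurred in 25.9% of the windows, and in those of Ldha, Pgam1 and Ldhb but not of Tpi1. Capitals mark the matches of ACGTG, and a match is not evidence of binding. The windows are chr1:106507842-106508091 (plus strand) for Ldha, chr1:250672902-250673151 (plus) for Pgam1, chr4:159305089-159305338 (minus) for Tpi1 and chr4:177177409-177177658 (minus) for Ldhb.
Ldha: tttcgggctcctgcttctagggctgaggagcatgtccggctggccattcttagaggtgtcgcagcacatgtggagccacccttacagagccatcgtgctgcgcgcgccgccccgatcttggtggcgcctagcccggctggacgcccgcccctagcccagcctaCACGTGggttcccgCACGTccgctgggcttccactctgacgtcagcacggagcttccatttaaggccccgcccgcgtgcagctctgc
Pgam1: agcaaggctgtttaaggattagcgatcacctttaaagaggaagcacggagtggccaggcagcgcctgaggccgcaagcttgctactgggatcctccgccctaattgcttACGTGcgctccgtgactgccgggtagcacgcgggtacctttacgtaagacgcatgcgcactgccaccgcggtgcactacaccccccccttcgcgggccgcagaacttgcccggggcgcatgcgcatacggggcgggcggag
Tpi1: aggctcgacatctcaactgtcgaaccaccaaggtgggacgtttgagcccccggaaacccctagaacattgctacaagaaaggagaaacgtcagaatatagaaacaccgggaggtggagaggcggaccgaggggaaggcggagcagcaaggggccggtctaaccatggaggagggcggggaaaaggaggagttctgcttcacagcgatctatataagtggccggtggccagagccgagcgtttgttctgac
Ldhb: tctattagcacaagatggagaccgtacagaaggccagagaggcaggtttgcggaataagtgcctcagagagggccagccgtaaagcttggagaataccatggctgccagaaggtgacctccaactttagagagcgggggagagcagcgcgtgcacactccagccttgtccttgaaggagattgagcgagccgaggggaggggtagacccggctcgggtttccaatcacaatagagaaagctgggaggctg

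Among the other members, a window of Gapdh, of Hk1 and of Aldoa held 1 match of ACGTG each, so that it was in 5 of the 13 windows of members, and GCGTG in 6 of the 13. The members' windows held 48.8% to 70.0% G and C, and 12 of the 13 lay above the median over all windows, 51.2%. The letters AGGTCA, the half-site of PPAR and other nuclear receptors, occurred in 14.1% of all windows and in 1 window each of Aldoa and Ldhb among the members. They did not occur in the windows of Ldha, Pgam1 or Tpi1.

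Pgk1, phosphoglycerate kinase, makes the first ATP of the payoff phase. Testes 1 to 3 gave −1.22, −1.55 and −2.56 at 10 µM, all below 0, with a mean of −1.78 ± 0.70 (SD, n = 3). This missed the threshold with 3 testes (limma, adjusted p = 0.0606) and passed it without testis 2, at −1.89 (adjusted p = 0.0147). Without testis 2 it was −0.38 with normexp and loess (adjusted p = 0.103) and −0.34 with no background correction and loess (adjusted p = 0.0761). At 1 µM the hybridizations gave −0.83 and −0.67, and their mean was −0.13 with normexp and loess. The MEHP channel was above background on 1 of 6 arrays at 10 µM and the pool on 4, as for Ldha. No array at 10 µM had both channels above background, and at 1 µM the pool was above background on 1 of 2 arrays.

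**Figure D4:**
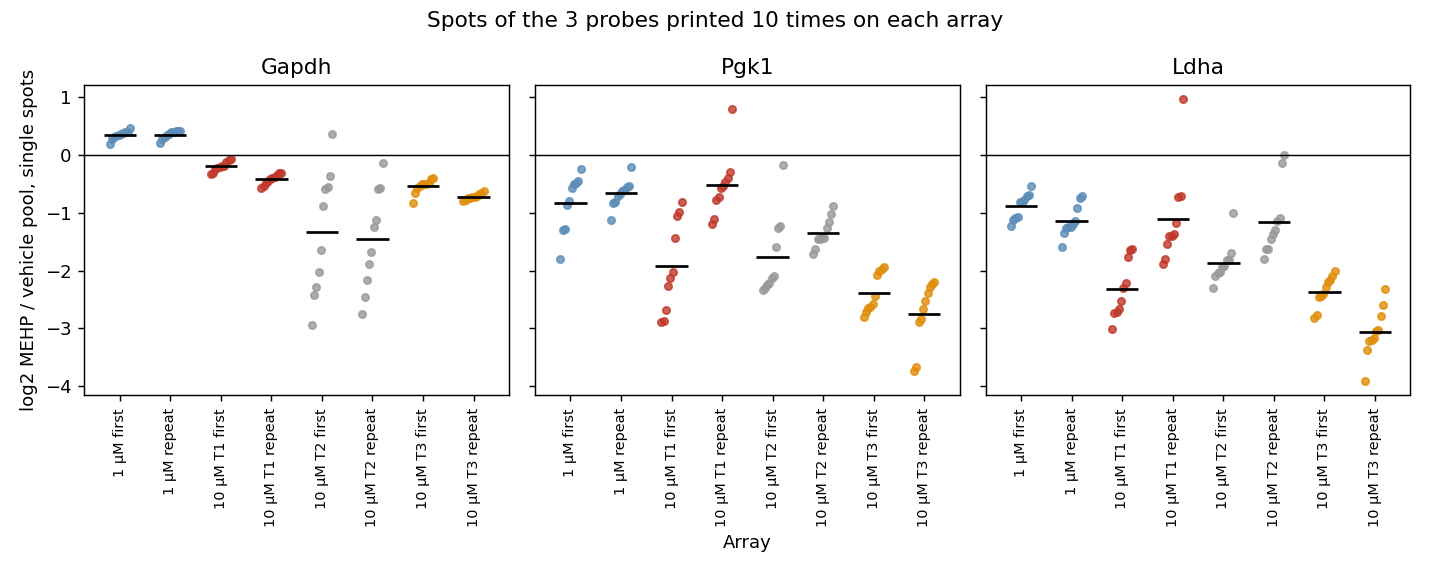
Each point is 1 of the 10 spots of a probe on an array, as the log2 MEHP over vehicle ratio, and black lines are the means. The Gapdh spots lie within a narrow band outside testis 2, with SDs from 0.05 to 0.13, whereas those of Pgk1 and Ldha spread more widely but lie almost all below 0.

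Pgam1, phosphoglycerate mutase, moves the phosphate group before the enolase step, and its brighter probe (A_43_P12753) is the member whose lower value without testis 2 rests on both channels being above background. Its pool signals ran from 2193 to 11885. Testes 1 to 3 at 10 µM gave −0.94, −1.62 and −1.78, and the 1 µM testis −0.20. The mean was −1.45 ± 0.45 (SD, n = 3), with 0.133 as the adjusted p of limma with all testes, and −1.36 without testis 2 (adjusted p = 0.0284). The hybridizations of testis 2 were far apart, at −3.03 and −0.22, whereas those of testes 1 and 3 differed by little, at −0.90 and −0.98 and at −1.71 and −1.85. Of the 5 probes lower without testis 2, it was the one that also passed with each other scaling, at −1.08 with normexp and loess (limma, adjusted p = 0.0364), −1.03 with no background correction and loess (adjusted p = 0.0350) and −1.27 with centred arrays (adjusted p = 0.00358). These fits rest on the same 2 testes, in settings chosen after seeing the data. With all 3 testes this probe missed the threshold in each of these scalings (limma, adjusted p = 0.308, 0.313 and 0.129). It also missed it without testis 1 (adjusted p = 0.317) or testis 3 (adjusted p = 0.849).

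The dim probe of Pgam1 (A_44_P259574) gave −0.46, −0.50 and −2.69 in testes 1 to 3 and −0.79 at 1 µM. Its mean was −1.21 ± 1.28 (SD, n = 3), with 0.230 as the adjusted p of limma, and −1.57 without testis 2 (adjusted p = 0.0454). The MEHP channel of this probe was not well above background on any of the 6 arrays at 10 µM, and no fold is given for it. In testes 1 and 2 the hybridizations had opposite signs.

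Gapdh, glyceraldehyde-3-phosphate dehydrogenase, opens the payoff phase and is widely used as a reference transcript. The probe printed 10 times gave −0.31, −1.40 and −0.63 in testes 1 to 3, a mean of −0.78 ± 0.56 (SD, n = 3), with 0.477 as the adjusted p of limma, and −0.47 without testis 2 (adjusted p = 0.348). At 1 µM its hybridizations gave 0.34 and 0.35, and none of the 20 spots was below 0. In testes 1 and 3 all 40 spots were below 0. The second probe (A_44_P363377) gave 0.39 at 1 µM and −0.29, −2.14 and −0.68 at 10 µM. Outside testis 2 the spots of 1 array thus agree closely with each other. On the 2 arrays of testis 2 their SDs were 1.07 and 0.87, with 0 of 10 MEHP spots above background. The test is over testes, and the difference between the doses was −1.13 and −1.43 for the 2 probes (limma, unadjusted p = 0.316 and 0.206).

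Eno1 encodes alpha-enolase, which makes phosphoenolpyruvate. Its brighter probe (A_44_P281761) gave 0.05, −1.63 and −0.55 in testes 1 to 3, a mean of −0.71 ± 0.85 (SD, n = 3), with 0.527 as the adjusted p of limma. The other (A_44_P299389) gave −0.37, −1.75 and −1.63, a mean of −1.25 ± 0.76 (SD, n = 3), with 0.207 as the adjusted p of limma. At 1 µM they gave 0.12 and 0.08. The probes differed in size in testis 3, and neither passed the threshold on the deposited scale with or without testis 2. With centred arrays and without testis 2, a setting chosen after seeing the data, A_44_P299389 passed at −0.91 (limma, adjusted p = 0.0430).

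Tpi1, triose phosphate isomerase, joins the products of the aldolase step into 1 stream. Its values at 10 µM were −0.90, −0.63 and −1.60 in testes 1 to 3, a mean of −1.04 ± 0.50 (SD, n = 3), with 0.317 as the adjusted p of limma, and −1.25 without testis 2 (adjusted p = 0.0350). The 2 dyes did not give the same size. The first hybridizations of testes 1 and 2 gave −0.02 and −0.05 and their repeats −1.78 and −1.20, and at 1 µM the values were −0.11 and −1.15.

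Aldoa, aldolase A, cleaves fructose bisphosphate. It gave −0.64, 0.05 and −0.94 in testes 1 to 3, a mean of −0.51 ± 0.51 (SD, n = 3), with 0.676 as the adjusted p of limma, and −0.24 at 1 µM. Its hybridizations differed in sign in testes 1 and 2, at 0.40 and −1.68 and at 0.86 and −0.75.

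Gpi, glucose-6-phosphate isomerase, had the highest member values at 1 µM and in testes 1 and 3. Its brighter probe (A_44_P414170) gave 0.47 at 1 µM, 0.23 in testis 1 and 0.18 in testis 3, and −1.10 in testis 2. The second (A_42_P728925) gave 0.48, 0.30 and −0.62, and −2.11 in testis 2. None of these differences passed the limit or threshold (limma, adjusted p = 0.879 and 0.463 over the 3 testes at 10 µM).

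Hk1, hexokinase 1, phosphorylates glucose at the start of the pathway. The probe A_43_P11538 gave −0.13 at 1 µM and −0.25, −2.10 and 0.14 in testes 1 to 3, with a mean of −0.74 ± 1.20 (SD, n = 3), with 0.512 as the adjusted p of limma, and −0.06 without testis 2. The other probe (A_44_P139536) was not above background in either channel on any of the 8 arrays, and was left out.

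In testes 1 and 3, 7 of the 14 member probes were above background in both channels on all 4 arrays. These were the probes of Ldhb and Gapdh and the brighter probes of Hk1, Gpi, Pgam1 and Eno1. The part of weak signal in the values of the other members was not tested.

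All 14 tested member probes were lower at 10 µM than at 1 µM, as were 79.1% of the 9861 probes tested at both doses, although the sign turned for Hk1, Ldha and the dim probe of Pgam1 with normexp and loess or with no background correction and loess, and for Aldoa, Tpi1 and the dim probe of Pgam1 with centred arrays. Without testis 2, 13 of the 14 were lower, Hk1 being the exception at 0.077, as were 57.5% of all probes. In the limma fit of all 4 testes, 0 probes of any kind differed between doses after adjustment and 24 did at an unadjusted p of 0.05, none of them a member. The difference for Ldha was −0.96 (limma, unadjusted p = 0.392) and for Pgk1 −1.03 (unadjusted p = 0.360). Testis 3 and the 1 µM testis shared a slide. Within it, 13 of the 14 members were lower at 10 µM, as were 61.9% of all probes. The median difference was −1.03 for the members and −0.27 for all probes, and it sets a single testis against a single testis. These counts between doses and this median hold Ldha, Pgk1, Tpi1 and the dim probe of Pgam1. Those probes entered the test at 10 µM through the pool, so the counts and the median support nothing about the members.

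Other genes of glucose metabolism were taken from lists that hold 57 genes and 71 probes on the array, of which 25 probes were tested at 10 µM. There, 1 of the 25 was lower, where 1.85% of all tested probes were, and 0 higher. Without testis 2 there were 6 lower and 1 higher, where 9.64% and 7.23% of all probes were. Their median was −0.78 with all testes and −0.54 without testis 2. At 1 µM, 1 of 34 tested probes was lower and 1 higher, where 2.96% and 4.05% of all probes were, with a median of −0.14. By list, the tested probes at 10 µM were 6 of other glycolytic enzymes, 5 of gluconeogenesis and glycogen, 4 of glycolytic regulators, 4 of pyruvate dehydrogenase and its carriers, 3 of glucose and lactate transport and 3 of the pentose phosphate pathway, and in the last none passed the threshold.

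The probe that fell with all testes was Bsg (basigin), the partner that brings lactate transporters to the cell surface. It gave −1.17, −2.85 and −1.96 in testes 1 to 3, a mean of −1.99 ± 0.84 (SD, n = 3), with 0.0403 as the adjusted p of limma, and −0.37 at 1 µM. The call was lost without testis 1 (limma, adjusted p = 0.259) or testis 3 (adjusted p = 0.849), with normexp and loess, at −0.74 (adjusted p = 0.289), with no background correction and loess, at −0.70 (adjusted p = 0.312), with centred arrays (adjusted p = 0.0504), with an intensity trend (adjusted p = 0.185), with slide as a block (adjusted p = 0.331) and with the testis as a random block (adjusted p = 0.0693).

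Of the genes that passed only without testis 2, Pkm2, the pyruvate kinase that ends the payoff phase, gave −0.97 in testis 1 and −1.38 in testis 3 (limma, adjusted p = 0.0384). Pfkp, the platelet type phosphofructokinase, gave −0.88 and −1.30 (adjusted p = 0.0491). Over all testes at 10 µM, Pfkp had a mean of −1.92 with the first hybridization alone and −0.13 with the repeat alone. Hif1a, the oxygen-regulated subunit of HIF-1, gave −0.80 and −2.25 on the probe that passed (adjusted p = 0.0281) and −0.59 and −0.53 on the other (adjusted p = 0.263). Ugp2, which makes UDP-glucose for glycogen, gave −0.84 and −2.29 on 1 of its 3 probes (adjusted p = 0.0259). Pdhb, a subunit of pyruvate dehydrogenase, gave −0.92 and −1.95 (adjusted p = 0.0264), and at 1 µM it was lower in both hybridizations, at −0.83 and −1.10. At 10 µM the MEHP channel was above background on 1 of 6 arrays for Pdhb and on 2 of 6 for each other probe that passed here. All of these probes entered the test through the pool, so their calls support nothing about these genes.

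The exception in direction was Eno2, the neuronal type enolase. It gave 1.87 in testis 1 and 1.11 in testis 3 (limma, adjusted p = 0.0208 without testis 2). In testis 2 it gave −0.88, and at 1 µM 0.74. With all testes at 10 µM the mean of Eno2 was 0.70 (limma, adjusted p = 0.539). With normexp and loess that mean was 0.19 (limma, adjusted p = 0.514). It was 0.099 with the first hybridization alone and 1.30 with the repeat alone. The MEHP channel and the pool were each above background on 3 arrays at 10 µM. Pygl, liver glycogen phosphorylase, was higher at 1 µM, at 1.22 and 1.09, but was too dim to test at 10 µM.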

How the data were processed

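The array images were read by the authors in Agilent Feature Extraction 9.1. The deposited values of a spot are the log10 of red over green, dye-normalized and background-subtracted per array, the error of that ratio, and the processed, foreground and background intensity of both dyes. Their list per dose of signed fold values and p-values was not used. The deposited log10 ratios were converted to log2 and turned to MEHP over vehicle. Outlier spots were left out, spots of a probe were averaged, and a testis, with its pair of hybridizations, was 1 replicate. Probes entered the test if either channel was well above background on at least 3 of 6 arrays at 10 µM, or 1 of 2 at 1 µM. The 3 testes were tested against 0 with limma 3.58.1 in R 4.3.3, and probes with adjusted p under 0.05 were called. At 1 µM the limit was 1.5-fold in both hybridizations. The fit was run on simulated data with independent values and the spread between testes 1 and 3. These data held no shift like that of testis 2 and no signals at background, so the run cannot speak to either. All member probes were named. Of the other lists, probes past the threshold with or without testis 2, or past the limit at 1 µM, were named. Members and lists were chosen with earlier results of these data known. The number of arrays limits the precision.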

Additional observations from a re-analysis of the deposited data

How the results depend on the processing

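The control pool is 1 sample, so the p-values leave out the spread between control testes. With 3 testes, the number of calls moved with nearly every choice. At 10 µM, 222 probes passed (185 lower, 83.3%, and 1766 at an unadjusted p of 0.05), of which 1 was a member, Ldha. With normexp background correction and loess 0 passed in limma (1655 at an unadjusted p of 0.05), and with no background correction and loess 0 (1589), and the median of the members moved from −1.03 to −0.18 in both. The median of all probes moved from −0.42 to −0.04 and −0.03. Centring the arrays on their medians left 121 (63 lower, 52.1%) and 0 members. Passing numbers were 0 and 0 members with no filter on dim probes, 6 and 0 members with both channels above background outside testis 2, 0 and 0 with the first hybridization alone, 228 and 0 with the repeat alone, 133 and 2 with an intensity trend, 0 and 0 with the testis as a random block over 6 arrays, 0 and 0 with slide as a block, and 5789 and 11 with the error-weighted mean, which leaves out the spread between testes. Leaving out each testis in turn gave 0 to 1687 probes and 0 to 5 members; both highest counts were without testis 2, and the counts without testis 1 or testis 3 were 0 and 0. Without testis 2, in settings chosen after seeing the data, 967 probes and 1 member passed with normexp and loess, 1296 and 2 with no background correction and loess and 2749 and 6 when centred. Unadjusted p-values under 0.05 were 2442 with no filter, 2914 with the first hybridization, 1690 with the random block, 943 with the slide, 1378 without testis 1 and 498 without testis 3.

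At 1 µM, 924 probes and 3 members passed the limit. The numbers were 66 and 0 with normexp and loess, 104 and 0 with no background correction and loess, 307 and 1 with both channels above background, 226 and 0 at 2-fold, 5282 probes with the first hybridization alone and 6270 with the repeat alone.

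Ldha stayed below 0 in the 16 settings run for it at 10 µM, from −2.21 to −0.32, and passed the threshold in 6 of them. Below, normexp and no background correction each go with loess. Directions at 10 µM turned for Hk1 (0.023 with normexp and 0.025 with no background correction), for Gpi (A_44_P414170; 0.044 with normexp, 0.11 with no background correction, 0.22 when centred, −0.46 to 0.21 on leaving out a testis and 0.12 with the error-weighted mean) and for Aldoa (0.24 with the first hybridization). Between doses they turned for Hk1 (0.16 with normexp, 0.11 with no background correction, −1.04 to 0.077 on leaving out a testis and 0.28 with slide as a block, an alternative chosen after seeing the data), for Ldha (0.0099 with no background correction), for the dim probe of Pgam1 (0.017 with no background correction, 0.084 when centred and −0.80 to 0.32 on leaving out a testis), and for Aldoa (0.24) and Tpi1 (0.092) when centred. No paired analysis was possible because the single testis at 1 µM shares fewer than 2 replicate numbers with those at 10 µM.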
